A study of Mus musculus with 6 samples.

Results

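The Ms4a4, Ms4a6 and Ms4a7 genes of the mouse encode membrane proteins found mostly on macrophages, monocytes and lymphocytes, and 8 of them (Ms4a4a, Ms4a4b, Ms4a4c, Ms4a4d, Ms4a6b, Ms4a6c, Ms4a6d and Ms4a7) were followed here, out of 22180 genes measured. They were chosen by gene symbol, and a gene with several probe sets would have been represented by the one with the highest mean over all 6 arrays. Each of the 8 had a single probe set annotated to it alone, so that mean decided nothing between probe sets, and no probe set with several symbols named an Ms4a gene. The family was picked with earlier results of these arrays known, among them the rises of Ms4a4c and Ms4a6c, so the tests of those genes give no independent support.

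RNA came from RAW264.7 cells, an established mouse line with monocyte and macrophage features. The cells were grown in DMEM with 10% FBS, starved, and then kept in DMEM with 2% FBS. The arrays labelled IL-33 (n = 3) came from cells given the IL-1 family cytokine IL-33 at 50 ng/ml, and the arrays labelled PBS (n = 3) from cells without it. No source used here gives the duration of treatment. Directions are those of the titles given to the samples. Array names in their descriptions carry the letters IL on the arrays titled PBS and the letter P on those titled IL-33, so every direction below would turn if those names were right. Nothing states that samples of a group were separate cultures, so the p-values refer to the spread among these arrays alone, and that spread may be technical.

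MS4A proteins cross the membrane several times with both ends in the cytoplasm, and they associate with immune receptors and signalling complexes in the membrane. The best known are CD20 of B cells, encoded by Ms4a1, and the beta chain of the high-affinity IgE receptor of mast cells, encoded by Ms4a2. In macrophages, Ms4a4a associates with the beta-glucan receptor Dectin-1 and Ms4a6d with the complement receptor Vsig4. Ms4a7 is used as a marker of tissue macrophages, and Ms4a4b and Ms4a6b were described mainly in T cells.

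The windows before the starts of the genes that rose, and of the neighbour Ms4a4b, are shown because pairs of neighbouring members share stretches of sequence there. RefSeq windows (build GRCm38.p6) were matched for 7 of the 8 members, and the 250 bases before the start are printed 5′ to 3′ on the gene's strand, which is plus for all 4. Capitals mark the longest run of letters shared by the 2 genes of a pair. Ms4a6b lies at chr19:11518309-11518558, Ms4a6c at chr19:11469118-11469367, Ms4a4b at chr19:11443308-11443557 and Ms4a4c at chr19:11407411-11407660.
Ms4a6b: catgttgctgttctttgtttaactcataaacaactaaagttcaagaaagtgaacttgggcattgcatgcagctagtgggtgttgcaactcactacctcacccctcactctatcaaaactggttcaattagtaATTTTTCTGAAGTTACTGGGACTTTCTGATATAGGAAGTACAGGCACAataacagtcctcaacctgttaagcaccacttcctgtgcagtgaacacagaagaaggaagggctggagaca
Ms4a6c: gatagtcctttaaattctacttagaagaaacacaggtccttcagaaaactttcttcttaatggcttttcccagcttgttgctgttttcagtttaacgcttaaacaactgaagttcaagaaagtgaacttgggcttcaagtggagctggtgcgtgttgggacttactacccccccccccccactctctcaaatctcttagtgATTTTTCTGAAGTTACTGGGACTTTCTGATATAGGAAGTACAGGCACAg
Ms4a4b: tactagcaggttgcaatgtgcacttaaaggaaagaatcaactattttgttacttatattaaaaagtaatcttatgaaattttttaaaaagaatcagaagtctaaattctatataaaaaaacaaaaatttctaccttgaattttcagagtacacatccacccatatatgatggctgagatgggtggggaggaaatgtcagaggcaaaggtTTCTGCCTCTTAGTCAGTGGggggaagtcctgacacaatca
Ms4a4c: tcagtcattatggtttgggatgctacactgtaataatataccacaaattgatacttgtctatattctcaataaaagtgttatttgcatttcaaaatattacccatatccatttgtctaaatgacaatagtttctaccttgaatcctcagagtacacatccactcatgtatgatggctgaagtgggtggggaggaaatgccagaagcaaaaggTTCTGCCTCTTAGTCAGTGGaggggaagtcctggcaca

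Ms4a6b and Ms4a6c shared an unbroken run of 48 bases. It ended 71 bases before the annotated start of Ms4a6b and 2 bases before that of Ms4a6c, and only these 2 of the 32851 windows in the table held it on either strand. Ms4a4b and Ms4a4c shared a run of 20 bases at nearly the same distance from both starts, also held by these 2 windows only, and a global alignment of their windows was identical at 70.8% of its positions. The other 19 pairs of members shared runs of 6 to 9 bases and were identical at 47.2% to 53.0%. The alignment of Ms4a6b with Ms4a6c, whose shared run lies at different distances from the starts, gave 47.4%. A set of 3 motifs was searched on both strands in the 8 windows of those 7 members (Ms4a7 has 2 starts). None held the core of an interferon response element, GAAA followed after any 2 bases by GAAA, none held TTCNNNGAA, a STAT motif, and none held GAGGAAGT, a motif of ETS factors such as PU.1. Of all windows, 2.98%, 7.02% and 2.44% held these motifs in the order given. That these letters are absent from the windows says nothing about any factor.

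Within the family, the arrays labelled IL-33 held more Ms4a4c (2.46-fold), Ms4a6c (1.88-fold) and Ms4a6b (1.76-fold) and less Ms4a7 (1.90-fold lower). The other 4 members did not pass. A gene is said to rise, fall or change where its difference passed an adjusted p of 0.05 (limma, Benjamini-Hochberg over all 22180 genes). That was so for 4 of the 8 members, 3 higher and 1 lower, beside 0.591% of all genes, 0.275% higher and 0.316% lower. The rises of Ms4a4c and Ms4a6c were among the results known when the family was picked, so nothing is read from this share. The median log2 difference of the 8 members was 0.18, against -0.01 for all genes. Values are log2 expression from RMA, which background-corrects and quantile-normalizes the arrays and summarises the probes of a set. The brightness of a probe set also depends on its probes, so levels of different genes are not tested against each other.

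**Figure D1:**
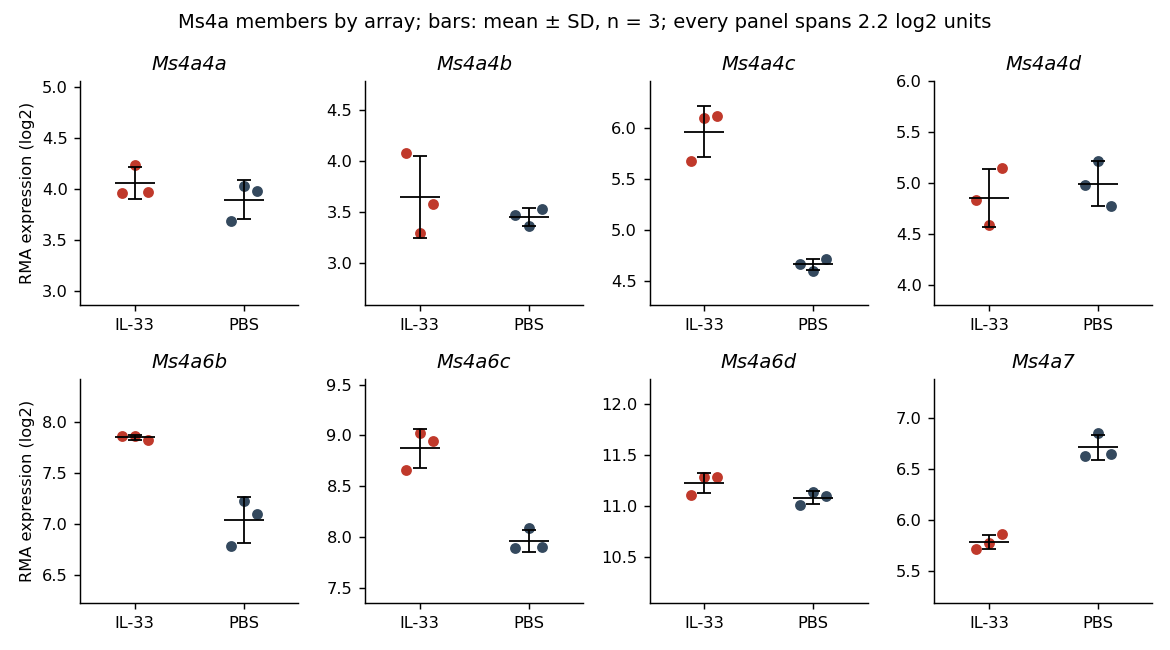
Log2 expression (vertical axes) of the 8 members on each array, with arrays labelled IL-33 on the left and PBS on the right of each panel; points are arrays, bars the mean ± SD (n = 3), and all panels span the same number of log2 units. The groups lie apart for Ms4a4c, Ms4a6b, Ms4a6c and Ms4a7 and overlap for the other 4 members.

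Ms4a4c, known as an interferon-induced gene of myeloid cells, had log2 values of 5.67, 6.09 and 6.12 in the arrays labelled IL-33, against 4.67, 4.60 and 4.71 in those labelled PBS. The groups were far apart, and IL-33 replicate 1 was the lowest of its group. The means were 5.96 ± 0.25 in IL-33 and 4.66 ± 0.06 in PBS (SD, n = 3 each). The log2 difference was 1.30 with a 95% interval of 1.02 to 1.59, at an adjusted p of 0.0133 (limma). It was the largest difference of any Ms4a gene measured on these arrays.

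Ms4a6c, a gene expressed in monocytes, had log2 values of 8.66, 9.02 and 8.95 in the arrays labelled IL-33 and of 7.89, 8.09 and 7.91 in those labelled PBS. As for Ms4a4c, every IL-33 array was above every PBS array and IL-33 replicate 1 was the lowest of its group. Its log2 difference was 0.91 (95% interval 0.66 to 1.16) with an adjusted p of 0.0226 (limma). Ms4a6b had log2 values of 7.87, 7.87 and 7.83 in IL-33, nearly identical to each other, against 6.79, 7.23 and 7.10 in PBS. Here the spread was in the PBS arrays, with PBS replicate 1 the lowest. The log2 difference was 0.81 (95% interval 0.56 to 1.07) with an adjusted p of 0.0351 (limma).

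Ms4a7, the macrophage marker, moved the other way. Its log2 values were 5.72, 5.78 and 5.86 in the arrays labelled IL-33, against 6.63, 6.86 and 6.65 in those labelled PBS. The groups were far apart, with little spread in either. The means were 5.78 ± 0.07 in IL-33 and 6.71 ± 0.12 in PBS (SD, n = 3 each). The log2 difference was -0.93 with a 95% interval of -1.11 to -0.75, and its adjusted p of 0.00899 (limma) was the smallest of the 8 members. In RNA of whole cultures, fewer cells with a transcript and less transcript per cell cannot be told apart.

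The other members gave small differences. Ms4a6d, the partner of Vsig4, had log2 values of 11.11, 11.28 and 11.29 in IL-33 and of 11.01, 11.13 and 11.09 in PBS, and the groups overlapped. Its difference was 0.15 (95% interval -0.02 to 0.31), so a rise beyond 0.31 log2 units lies outside the interval. Ms4a4a, the partner of Dectin-1, had log2 values of 3.96, 4.23 and 3.97 in IL-33 against 3.68, 4.03 and 3.98 in PBS, a difference of 0.16 with an interval of -0.12 to 0.43. Both groups of Ms4a4a lay in the same range.

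Ms4a4b, the neighbour of Ms4a4c with the most similar promoter window, had log2 values of 4.08, 3.29 and 3.58 in IL-33 and of 3.47, 3.36 and 3.53 in PBS. Its difference of 0.20 (95% interval -0.24 to 0.63) rested on IL-33 replicate 1, and it was -0.02 without that array. Ms4a4d had log2 values of 4.83, 4.59 and 5.15 in IL-33 against 4.99, 5.22 and 4.78 in PBS, fully intermingled. The difference was -0.14, with an interval of -0.52 to 0.24. Adjusted p for these 4 members lay between 0.422 and 0.776 (limma). The intervals of Ms4a4b and Ms4a4d are wide, and they leave room for changes of moderate size.

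The filter that drops genes with a mean under 5.75, the median over all genes, leaves out Ms4a4a, Ms4a4b, Ms4a4c and Ms4a4d. The arrays carry 23 background control probe sets, whose means ran from 2.49 to 8.83. That span covers the means over all arrays of every member except Ms4a6d. The base composition of the members' probes was not used here, so no member was called absent. Whether probes of one Ms4a gene also bind transcripts of a close relative was not tested.

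Differences between members were also taken inside each array, where any scaling of whole arrays cancels. Ms4a6c minus Ms4a7 was 2.94, 3.24 and 3.09 log2 units in the arrays labelled IL-33, against 1.26, 1.23 and 1.25 in those labelled PBS. The groups differed by 1.84 log2 units, or 3.58-fold, with no overlap. For each gene that rose every IL-33 array was above every PBS array, and for Ms4a7 every one was below. Pairs of such a gene with Ms4a7 therefore could not overlap, and they add no support to the calls. Ms4a6c minus Ms4a6d was -2.45, -2.26 and -2.34 in IL-33 and -3.11, -3.05 and -3.19 in PBS, again with no overlap and a difference of 0.77. For Ms4a6c minus Ms4a6b the groups overlapped and differed by 0.10. Over 6 such pairs, the exact two-sided permutation p was 0.1 for each pair except Ms4a6c with Ms4a6b, which gave 0.6. The smallest p that 3 arrays against 3 allow is 0.1, and it was 0.12 after Benjamini-Hochberg adjustment over the 6 pairs, so this test cannot pass 0.05.

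The Ms4a genes lie side by side on chromosome 19. In RefSeq order the members follow each other as Ms4a7, Ms4a4a, Ms4a4c, Ms4a4b, Ms4a6c, Ms4a6b, Ms4a4d and Ms4a6d. The genes that rose were therefore not next to one another without a break, since Ms4a4b stands between Ms4a4c and Ms4a6c. Ms4a7, which fell, stands at the edge of this stretch. Another 2 tested genes lie within it: BE692007, with a log2 difference of 0.11, and Gm8369, with 0.35 at an adjusted p of 0.353 (limma).

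**Figure D2:**
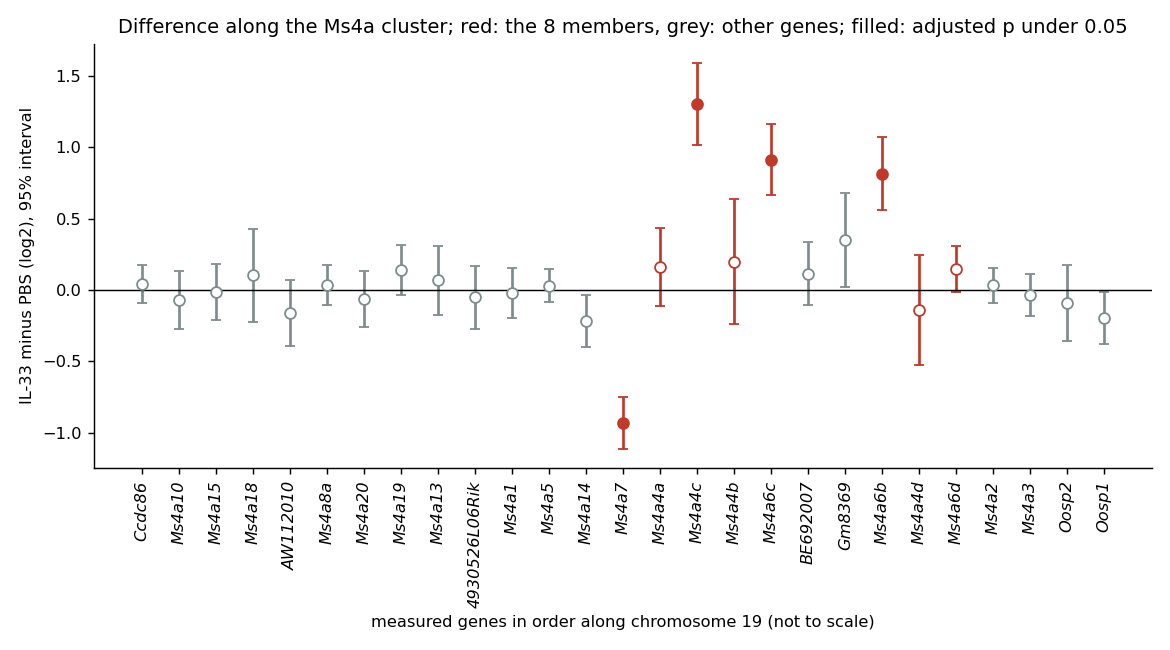
Log2 difference, IL-33 minus PBS, with its 95% interval (vertical axis) for the measured genes of the Ms4a region in chromosome order (horizontal axis, not to scale); members are red, other genes grey, and filled points passed an adjusted p of 0.05. The filled points are Ms4a7 at -0.93, Ms4a4c at 1.30, Ms4a6c at 0.91 and Ms4a6b at 0.81, and the other genes lie between -0.22 and 0.35.

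The 12 other Ms4a genes on the arrays were measured beside them. None passed in either direction (limma), 1 had an unadjusted p under 0.05, and their log2 differences ran from -0.22 to 0.14 with adjusted p of 0.289 to 0.968. Ms4a1 differed by -0.02, Ms4a2 by 0.03 and Ms4a3, a gene of granulocyte and monocyte progenitors, by -0.04. Ms4a14 had the most negative difference, -0.22, and was the single gene of the 12 whose groups did not overlap, beside 20.3% of all genes and 4 of the 8 members. Ms4a14 is the neighbour of Ms4a7 on the side away from the members.

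Partners of Ms4a proteins and signalling genes were counted from a list of 12 receptors, adaptors and signalling genes. Whether each of the 12 works with an Ms4a protein was not tested. The median log2 difference of the list was -0.08, and 2 genes fell, 10 did not pass and none rose. Over all genes, 0.316% fell and 0.275% rose. An unadjusted p under 0.05 (limma) was reached by 5 of the 12, beside 13.2% of all genes. The groups lay apart for 8, beside 20.3% of all genes. Differences were below 0 for 9 genes and above 0 for 3. Clec7a, which encodes Dectin-1, had log2 values of 8.35, 8.39 and 8.24 in IL-33 against 8.85, 8.92 and 8.76 in PBS and fell by 0.52 on the log2 scale, with an adjusted p of 0.0317 (limma). Syk, the tyrosine kinase that signals below Dectin-1, had 9.03, 9.04 and 8.92 in IL-33 against 9.53, 9.39 and 9.49 in PBS and fell by 0.47, with an adjusted p of 0.0335 (limma). The groups were apart for both genes, but neither passed when any 1 array was left out, with adjusted p of 0.0779 to 0.155 for Clec7a and 0.0748 to 0.158 for Syk (limma). Vsig4, the partner of Ms4a6d, differed by 0.12, and Tnfrsf18, the T cell receptor GITR that Ms4a4b and Ms4a6b associate with, by -0.08. Mean log2 values of Vsig4 were 3.17 in IL-33 and 3.05 in PBS. Both lay below 4.12, the median of the background controls, so the small difference does not show that Vsig4 was unchanged.

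Interferon-stimulated genes were followed because Ms4a4c belongs to interferon signatures. Of 27 measured, 8 rose, 19 did not pass and none fell. Over all genes, 0.275% rose. The median log2 difference of the list was 0.25, against -0.01 for all genes, and all 27 differences were above 0, where 52.1% of all genes were below 0. Mx1 rose by 1.49, Ifit2 by 0.62, Zbp1 by 0.53 and Igtp by 0.46 on the log2 scale. Of the 27, 24 had an unadjusted p under 0.05 (limma), beside 13.2% of all genes, and 25 had groups apart, beside 20.3%. Fewer than 8 passed when 1 array was left out. That left 5 without IL-33 replicate 1, 2 without PBS replicate 2 and 1, Mx1, without each of the others. More passed with dim genes left out: 11 with the filter at the 25th percentile and 17 with that at the median mean. With the trended and robust prior variance 22 passed. These settings raised the count over all genes too, from 131 to 296, 760 and 1000. With all probe sets tested 1 passed, Mx1, and likewise with the replicate number as a block, at adjusted p of 0.0267 and 0.0265 (limma). The mean log2 value of the list was 10.06 to 10.08 across the arrays labelled IL-33 and 9.71 to 9.77 across those labelled PBS. That these genes were higher was known when the list was written, and the part they share with the rises of Ms4a4c, Ms4a6b and Ms4a6c was not tested.

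Likeness of pattern was measured for each changed member as the root mean square difference between genes over the 6 arrays, in log2 units, after each gene's own mean was subtracted. A small value means that both the size of the change and the spread between replicates were alike. Only genes at or above the median mean were searched, and the groups themselves set most of this likeness. Ms4a4c itself lies below that median, and so does Mx1. Dimmer genes could be nearer to a member than those listed, and they were not measured this way. Ms4a4c, which departs from its own mean by 0.67 on this measure, was nearest to Ifi214 at 0.11, then to the ferroxidase gene Cp at 0.17, Ms4a6c at 0.22, Ifi209 at 0.24 and the activation antigen gene Cd69 at 0.25. Ifi214 had 8.41, 8.61 and 8.60 in IL-33 against 7.23, 7.30 and 7.47 in PBS. Ifi214 and Ifi209 are members of the interferon-inducible p200 family.

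Ms4a6c had Ifi209 and Cd69 among its nearest genes too. They were Ifi209 at 0.09, Gm12250 at 0.09, Cd69 at 0.10, Ifi205, also of the p200 family, at 0.11, and the lipase gene Lipg at 0.12, where Ms4a6c departs from its own mean by 0.47. Ifi209 had an adjusted p of 0.0593 (limma) and did not pass. The 5 genes nearest to Ms4a6b were all others: Phf11b at 0.06, Apol9b at 0.06, the histidine decarboxylase gene Hdc at 0.07, Gm4951 at 0.08 and the G-protein regulator Rgs16 at 0.09. In each of these, as in Ms4a6b, PBS replicate 1 was the lowest of the 6 arrays. The genes were chosen for likeness to Ms4a6b on these same arrays, so nothing is read from that shared low array.

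Ms4a7 was nearest to Ifi27 at 0.13, the collagenase gene Mmp8 at 0.13, the gelatinase gene Mmp9 at 0.14, the cytokine gene Il1a at 0.14 and Cyp4f39 at 0.14. Ms4a7 departs from its own mean by 0.47 on the same measure. Ifi27, a gene named for its induction by interferon, had log2 values of 8.75, 8.66 and 8.69 in IL-33 against 9.53, 9.45 and 9.57 in PBS and fell by 0.82, with an adjusted p of 0.00387 (limma). It went the opposite way from the 27 interferon-stimulated genes of the list, which does not hold it.

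**Figure D3:**
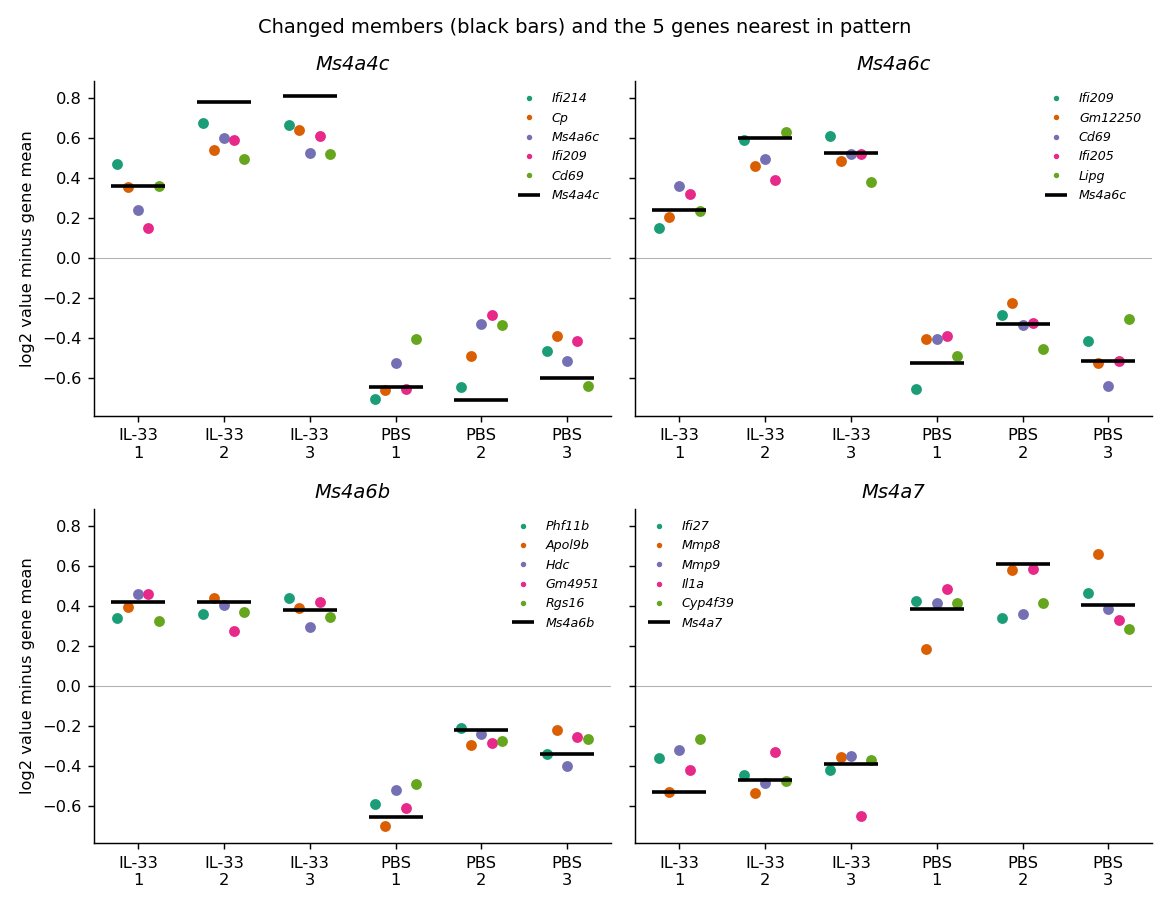
Log2 value minus the gene's own mean (vertical axis) on each array (horizontal axis, IL-33 replicates first) for each changed member, drawn as black bars, and the 5 genes nearest to it in pattern, drawn as coloured points. The bars of Ms4a4c, Ms4a6c and Ms4a6b are above 0 on the 3 arrays labelled IL-33, those of Ms4a7 are below 0 there, and the points follow them.

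The cells were checked against markers. Csf1r, the receptor of macrophage growth, had a mean log2 value of 11.65 in IL-33 and 11.63 in PBS, and Cd68, Cd14, Itgam and Lyz2 did not pass (limma). Cd68, at -0.03, and Cd14, at -0.04, were nonetheless lower in every IL-33 array. Itgam, at 0.09, was higher in every IL-33 array, and the groups of Lyz2 overlapped. Of 20 macrophage markers Fcgr1 rose, Gpnmb fell and 18 did not pass. Over all genes, 0.275% rose and 0.316% fell. An unadjusted p under 0.05 (limma) was reached by 6 of the 20, beside 13.2% of all genes. The groups lay apart for 9, beside 20.3% of all genes. Differences were below 0 for 13 and above 0 for 7. Adgre1, at -0.29, Cx3cr1, at -0.19, and Trem2, at -0.13, were lower in every IL-33 array and did not pass. Without any 1 array neither Fcgr1, at 0.0699 to 0.204, nor Gpnmb, at 0.0545 to 0.146, kept an adjusted p under 0.05 (limma). Cd163 and Lyve1, markers of resident tissue macrophages, had mean log2 values of 4.24 in both groups and of 5.19 in IL-33 and 5.14 in PBS, and did not pass. Pf4, expressed by many tissue macrophages, had 5.58, 6.03 and 6.23 in IL-33 against 6.99, 6.98 and 6.80 in PBS, with an adjusted p of 0.0593 (limma), or 0.042 without IL-33 replicate 1. Pf4 also passed with genes below the 25th percentile or the median mean left out, at 0.037 and 0.0142 (limma). It passed too with the trended and robust prior variance, at 0.0017, and with array weights, at 0.049 (limma). With all probe sets tested or a replicate block it did not pass, at 0.203 and 0.182 (limma).

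Markers of lymphocytes, mast cells and neutrophils were measured because several Ms4a genes mark those cells. Of 7 B cell markers 1 rose, Ighm, and of 8 mast cell markers 1 rose, Hdc, by 0.65 and 0.77 on the log2 scale. Over all genes, 0.275% rose. Ighm has several probe sets, and with them averaged its adjusted p was 0.374 (limma). Ighm was lost whichever array was left out, at 0.0635 to 0.134, and Hdc passed only without PBS replicate 2, at 0.0305, and was lost without each other array, at 0.0565 to 0.0982 (limma). Of the B cell markers 3 had an unadjusted p under 0.05, and the other two, Blnk at -0.36 (adjusted p 0.0720) and Pax5 at -0.16 (adjusted p 0.252), had lower values in every IL-33 array than in any PBS array and did not pass (limma). Of the mast cell markers 1, Hdc, had an unadjusted p under 0.05 (limma), beside 13.2% of all genes. None of 9 T cell markers and none of 8 neutrophil and progenitor markers passed (limma), none of them had an unadjusted p under 0.05, and their adjusted p lay between 0.400 and 0.947. The mean log2 value of the T cell list was 4.94 to 4.99 in IL-33 and 4.95 to 5.07 in PBS, that of the B cell list 6.35 to 6.40 in IL-33 and 6.28 to 6.40 in PBS, that of the mast cell list 4.27 to 4.31 in IL-33 and 4.17 to 4.28 in PBS, and that of the neutrophil list 4.58 to 4.67 in IL-33 and 4.64 to 4.70 in PBS. The defining markers Cd3e, at 4.14 in IL-33 and 4.18 in PBS, Cd79a, at 5.08 in both groups, and Fcer1a, at 3.01 in IL-33 and 3.10 in PBS, did not pass. The part of Ighm and Hdc in the member results was not tested.

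The calls of the 4 changed members differed with the set of features tested, with a replicate block and with single arrays. Their directions did not change under any alternative in which they were fitted. With all 41155 probe sets other than controls as the tested features none of the 4 passed, though all 4 had an unadjusted p under 0.05, with adjusted p of 0.0531 for Ms4a7, 0.0726 for Ms4a4c, 0.109 for Ms4a6c and 0.146 for Ms4a6b (limma). Ms4a7 passed in 5 of the 6 fits that left out 1 array and was lost without IL-33 replicate 2, at an adjusted p of 0.0676 (limma). Of these fits, Ms4a4c and Ms4a6c passed only without IL-33 replicate 1, at 0.00255 and 0.0189, and were lost without each other array, at 0.0549 to 0.0792 and 0.0590 to 0.129. Ms4a6b passed only without PBS replicate 1, at 0.0481, and was lost without each other array, at 0.0548 to 0.163.

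**Figure D4:**
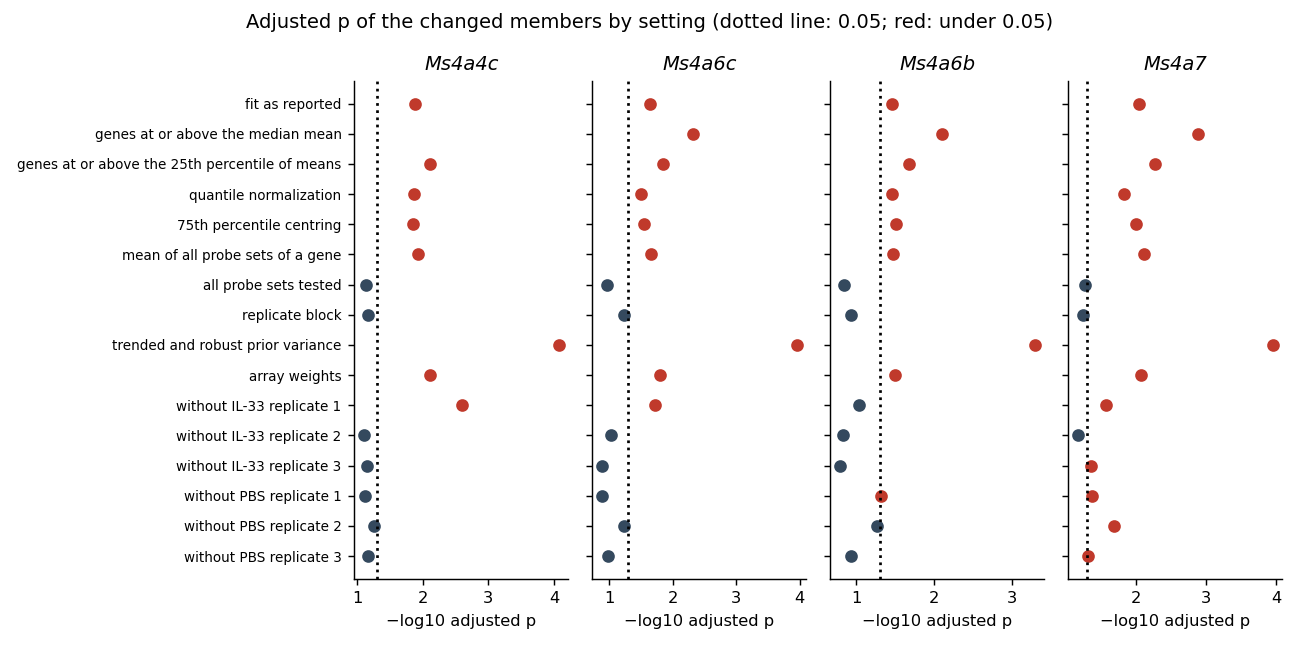
Adjusted p as −log10 (horizontal axes) of the 4 changed members under each setting (vertical axis), with the dotted line at 0.05 and red points under it; Ms4a4c has no point where genes below the median mean were left out. Ms4a7 keeps red points in 5 of the 6 settings that leave out an array, and each other gene in 1.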

How the data were processed

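The authors deposited log2 values, 1 for each probe set on each array, which RMA produced per the submitters' processing notes. No source used here gives the version or settings of RMA. Per the labels' protocols, biotin-labelled cDNA was made from amplified total RNA. Of 41345 probe sets, 23521 carried exactly 1 gene symbol in the platform annotation, and 22180 genes were tested, each through its probe set with the highest mean. The fit used lmFit and eBayes of limma 3.58.1 (R 4.3.3) with a group term alone and no filter, with Benjamini-Hochberg adjustment over all genes. Arrays have no read depth, so their number limits the precision. Across genes, log2 differences had a median standard error of 0.073.

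Members and lists were chosen with earlier results of these data known. All 8 members were named. From the other lists, up to 4 changed genes with the largest change, or 2 with the smallest p, were to be named, and for each changed member the 5 genes nearest in pattern. Defining markers, other Ms4a genes, Pf4, Vsig4 and Tnfrsf18 are named beyond that. The alternatives were 2 filters on dim genes, 2 further normalizations, averaged probe sets, all probe sets, a replicate block, a trended and robust prior variance, array weights and leaving out each array. The IL-33 against PBS comparison was simulated 10 times over 22180 genes, with normal values, independent between genes, and variances taken from the fit. The test recovered 81% of genes changed by 0.5 on the log2 scale and 99.5% of genes changed by 1. Of the calls, 5.33% were unchanged genes. The fit had already drawn the variances of single genes toward a common value, so recovery on the real arrays may be lower. Recovery also depends on the number and sizes of the changes that were simulated, which the real arrays need not share. On the real arrays Pf4, at -0.98, and Ifi209, at 0.90, did not pass, each with an adjusted p of 0.0593 (limma). Python 3.11.15 with matplotlib 3.10.9 drew the figures.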

Additional observations from a re-analysis of the deposited data

How the results depend on the processing

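Of the 8 members, 4 passed in the fit as reported. With all probe sets tested 0 members passed, and 17 probe sets passed in place of 131 genes. With the replicate number as a block 0 members and 21 genes passed (5 members at an unadjusted p under 0.05), with adjusted p of 0.0573 for Ms4a7 and Ms4a6c, 0.0691 for Ms4a4c and 0.117 for Ms4a6b (limma). Nothing states that a number pairs the samples, and the deviations of same-numbered arrays correlated at 0.08, 0.09 and 0.02, so the numbers were not taken as pairs. Leaving out 1 array gave 0 to 3 members and 15 to 83 genes that passed. With genes below the median mean left out 760 genes passed, with those below the 25th percentile left out 296, and with the trended and robust prior variance 1000. The filters kept 4 and 6 members, and either moved the members' median difference to 0.48. The filter at the median mean left out Ms4a4a, Ms4a4b, Ms4a4c and Ms4a4d, and the other left out Ms4a4a and Ms4a4b. The median ran from 0.159 to 0.249 without 1 array, and Ms4a6c minus Ms4a7 from 1.77 to 1.91. Ms4a15 turned to 0.0211 with quantile normalization and to 0.0175 with array weights. Without 1 array these genes, none of which passed, took either sign: Ms4a4b from -0.0176 to 0.379, Ms4a1 from -0.0779 to 0.0241, Ms4a3 from -0.0687 to 0.0041, Ms4a8a from -0.0052 to 0.0754, Ms4a10 from -0.133 to 0.016, Ms4a13 from -0.0461 to 0.136, Ms4a15 from -0.0615 to 0.0713 and Ms4a18 from -0.0337 to 0.207. Over 47 other named genes, 498 values kept their direction and side of the threshold, 153 lost the call, 10 gained it and 12 changed sign, all 12 of them in Ms4a genes that did not pass. With no detection calls, low members cannot be told from background. The cause of these dependences was not tested.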

Other observations

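Around the Ms4a genes, 4 other tested genes lie among them on chromosome 19, with log2 differences from -0.16 to 0.35 and adjusted p of 0.353 to 0.865 (limma), and 3 tested genes flank them, with differences from -0.19 to 0.04. None of these 7 genes passed (limma), and 2 had an unadjusted p under 0.05. Gm8369, between Ms4a6c and Ms4a6b, had a 95% interval of 0.02 to 0.68.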
